A study of Homo sapiens with 8 samples.

Results

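The genes described here are 8 transcription factors of endoderm and lung epithelium: FOXA1, FOXA2, FOXA3, HNF4A, HNF4G, NKX2-1, GATA6 and ELF3. They were taken by symbol, together with every probe set of the array annotated to 1 of these symbols alone, and 7 of the 8 had such a probe set (15 probe sets in all, of 19775 genes measured). HNF4A had none in the annotation used here and was not analysed. Each gene is represented by its main probe set, which had the highest average on the 8 arrays, and the remaining probe sets are given beside it. The cells were A549, a human lung adenocarcinoma line, grown either as monolayers (2D) or as spheroids made by hanging droplet (3D). Both kinds of culture received either vehicle (control) or 10 ng/ml TNF together with 2 ng/ml TGFβ, added in 2 rounds that lasted 48 h each (treated). The 4 groups, 2D control, 2D treated, 3D control and 3D treated, hold 2 Affymetrix U133 plus 2.0 arrays each. All groups are the same cell line, so they show 1 tumour's cells and not normal lung epithelium. The study's methods name the array pairs technical duplicates whereas its deposited design names them biological replicates, so the p-values measure the spread between these arrays, which may be technical.

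FOXA proteins are forkhead factors that can open compacted chromatin at endodermal genes, and in the lung they act beside NKX2-1, the factor that defines the respiratory lineage and drives surfactant genes. HNF4 proteins are nuclear receptors that maintain liver, gut and kidney epithelium, and GATA6 is a zinc finger factor needed for endoderm formation and for maturation of the lung epithelium. ELF3 is an ETS factor restricted to epithelial cells and is also inducible by inflammatory signals through NF-κB.

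Promoters are shown for the 4 factors whose group means spanned at least 1 on the log2 scale, as the sequence in front of the genes that varied with culture or treatment. Each is the 250 bases before the RefSeq transcription start on GRCh38.p14, read 5′ to 3′ on the gene's strand. Capitals mark matches on either strand to 7 motifs, namely TGTTTAC for forkhead factors, CAAAGTC for HNF4, AGATAA for GATA factors, CCGGAAG for ETS factors, TGANTCA for AP-1, CAGGTG for the E-box and CAAGTG for NK2 factors. The FOXA1 promoter lies at chr14:37595250-37595499 on the minus strand, that of FOXA3 at chr19:45864076-45864325, that of GATA6 at chr18:22169339-22169588 and that of ELF3 at chr1:202010337-202010586, the latter 3 on the plus strand.
FOXA1: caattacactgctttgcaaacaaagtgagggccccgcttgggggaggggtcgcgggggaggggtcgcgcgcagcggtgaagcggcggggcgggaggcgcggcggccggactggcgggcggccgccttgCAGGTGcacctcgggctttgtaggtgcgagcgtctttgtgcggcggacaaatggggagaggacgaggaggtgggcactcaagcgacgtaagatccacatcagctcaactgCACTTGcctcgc
FOXA3: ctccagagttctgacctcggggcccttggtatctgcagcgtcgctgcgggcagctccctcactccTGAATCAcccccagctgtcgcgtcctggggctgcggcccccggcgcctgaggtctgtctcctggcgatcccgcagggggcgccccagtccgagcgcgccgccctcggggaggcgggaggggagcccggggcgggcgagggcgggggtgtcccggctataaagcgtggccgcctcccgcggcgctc
GATA6: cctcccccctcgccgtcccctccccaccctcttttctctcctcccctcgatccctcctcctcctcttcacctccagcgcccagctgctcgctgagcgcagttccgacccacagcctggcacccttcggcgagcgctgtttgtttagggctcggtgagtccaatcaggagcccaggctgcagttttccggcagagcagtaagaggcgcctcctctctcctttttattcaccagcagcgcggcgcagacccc
ELF3: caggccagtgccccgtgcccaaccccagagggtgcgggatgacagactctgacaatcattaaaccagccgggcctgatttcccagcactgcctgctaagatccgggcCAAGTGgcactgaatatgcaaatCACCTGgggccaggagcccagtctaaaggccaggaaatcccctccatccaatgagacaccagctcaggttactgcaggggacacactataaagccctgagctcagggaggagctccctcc

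The FOXA1 window held an E-box that starts at base −122 from the transcription start and a reverse-strand NK2 match at −12. The FOXA3 window held 1 AP-1 match, TGAATCA, at −185. The ELF3 window held an NK2 match at −143 and a reverse-strand E-box at −120, and the GATA6 window held no match to any of the 7. Of 35116 promoters of this length, 17.5% held the E-box, 9.50% the NK2 motif, 9.17% the GATA motif, 8.52% the ETS motif, 6.57% the AP-1 motif, 2.98% the forkhead motif and 2.91% the HNF4 motif. GC content was 67.2% for FOXA1, 75.2% for FOXA3, 64.4% for GATA6 and 58.4% for ELF3, beside a median of 58% over all promoters. These matches are a description of the letters, and no binding was measured on these arrays.

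Relative to 3D control, in treated spheroids FOXA2 and FOXA3 fell by main probe set, calls that ended when most single arrays were left out. FOXA1, HNF4G and ELF3 had lower values that did not pass the test on their main probe sets, and GATA6 had higher values that did not pass. The other ELF3 probe sets, 229842_at (−2.28) and 201510_at (−2.45), were called lower there (limma adjusted p = 0.00600 and 0.0118). The untreated spheroids had more ELF3 than the untreated monolayers by its main probe set. The treated spheroids had more GATA6 than the treated monolayers, whereas the ELF3 probe sets gave opposite directions there, higher by the main one and lower by the other two. The lung lineage factor NKX2-1 was below the array median throughout. Values are GCRMA log2 expression values, on which a difference of 1 is a doubling, and the differences were tested with limma across 54613 probe sets at an adjusted p threshold of 0.05.

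By this test on the main probe sets, 0 of the 7 measured factors were higher and 2 were lower in 3D treated than in 3D control. Of all genes, 5.53% were called higher and 10.8% lower there. The median log2 fold-change of the 7 was −0.71, beside 0 for all genes. Among the 54613 probe sets tested, 15259 held 1 value on all arrays and could not differ. The median and shares of all genes therefore include genes near background. At an unadjusted limma p under 0.05 stood 6 of the 7, with GATA6 higher and the others lower. The share of all genes at that unadjusted threshold is not given here for any comparison. Of the 104 genes of the related lists below, 37 were under it in 3D. In 2D, 0 of 7 factors were called in either direction, 1 (FOXA1) had an unadjusted p under 0.05, and ordinary t statistics of the same fit also called 0. The background there was 0.121% of genes called higher and 0.0759% lower. The difference between the 3D and the 2D response was called for 0 of 7 main probe sets by limma and by ordinary t statistics, with 1 at an unadjusted p under 0.05, beside 1.32% of genes called higher and 1.94% lower. Between the untreated cultures 1 of 7 was higher in 3D (5.77% of genes called higher and 4.9% lower). Between the treated cultures 2 of 7 were higher in 3D (9.06% of genes called higher and 14.5% lower). Of these, ELF3 was called lower by its other probe sets. GATA6 had no contrary call, but its other probe set carried no usable signal on differences. These comparisons share arrays, so their values are given side by side and are not independent of each other. In a whole culture, fewer cells of a kind and less RNA per cell cannot be told apart.

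**Figure D1:**
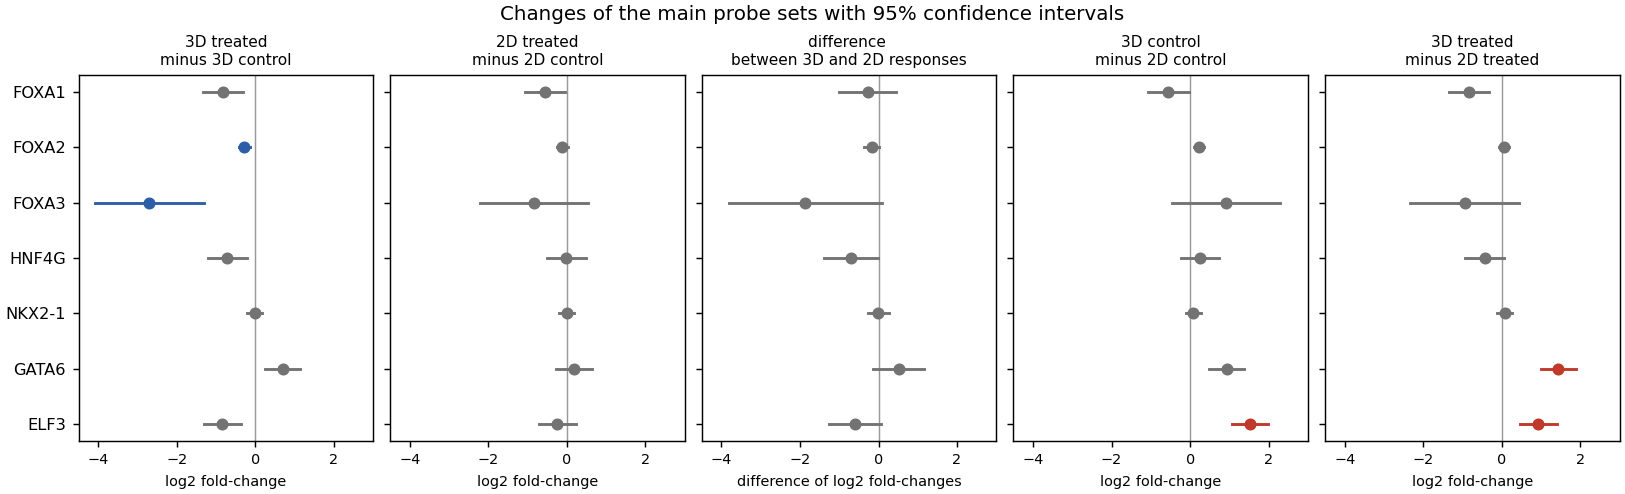
Log2 fold-change of the main probe set of each factor (points) with its 95% confidence interval (lines) in 5 limma comparisons of A549 cultures; blue marks a fall and red a rise at an adjusted p under 0.05, and grey did not pass. FOXA2 (−0.28) and FOXA3 (−2.70) fell in treated spheroids, and GATA6 (1.44) was higher in 3D than in 2D treated cultures. By its main probe set ELF3 was higher in 3D than in 2D control (1.52). The other ELF3 probe sets (0.20 and 0.37) did not pass there. For ELF3 the last panel shows the main probe set (0.93), while its other probe sets were called lower there (−1.76 and −1.94).

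FOXA3, the FOXA member best known for its role in liver and gut metabolism, had the largest change among the main probe sets. Its log2 values were 4.99 and 4.25 in 2D control, 4.26 and 3.31 in 2D treated, 5.77 and 5.30 in 3D control, and 3.24 and 2.44 in 3D treated. The 3D control arrays were the highest and the 3D treated arrays the lowest of all 8, and 1 of the latter lay below its array's median. In 3D, FOXA3 fell 6.49-fold with treatment, a log2 fold-change of −2.70 ± 0.51 (SE, n = 2 arrays per group, limma adjusted p = 0.0474). In 2D its log2 fold-change was −0.84 (limma adjusted p = 0.920), and the difference between both responses was −1.86 ± 0.73 (SE, limma adjusted p = 0.347; 95% interval −3.82 to 0.09). Ordered from 3D control through 2D control and 2D treated down to 3D treated, no neighbours passed the test, with limma adjusted p of 0.528, 0.920 and 0.424. The fall in 3D did not pass when any 1 of the 8 arrays was left out (limma adjusted p up to 0.184, 4.91-fold to 8.57-fold), nor with only the 4 arrays of the comparison (limma adjusted p = 0.148).

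FOXA2, expressed in the foregut endoderm and its lung and liver derivatives, varied little. The values of its main probe set were 8.82 and 8.76 in 2D control, 8.70 and 8.64 in 2D treated, 8.95 and 9.07 in 3D control, and 8.72 and 8.73 in 3D treated. The 3D control arrays were again the highest, and did not overlap with the 3D treated ones. The fall in 3D was 1.22-fold, with a log2 fold-change of −0.28 ± 0.05 (SE, limma adjusted p = 0.0413). A further probe set, 210103_s_at, had 8.66 and 8.87 in 3D control and 8.47 and 8.62 in 3D treated, and its log2 fold-change of −0.22 did not pass (limma adjusted p = 0.307). The remaining probe set, 214312_at, was at 2.23 on 7 arrays and at 2.57 on the eighth, and carried no usable signal. The FOXA2 call ended without any 1 of 7 arrays, all but 3D control 1 (limma adjusted p up to 0.126), after quantile normalization (limma adjusted p = 0.221) and with the replicate number as a block (limma adjusted p = 0.0991).

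In 2D the log2 fold-change of FOXA2 was −0.11 with the main probe set (limma adjusted p = 0.780) and −0.43 with 210103_s_at (limma adjusted p = 0.295). Between untreated cultures these probe sets differed in sign. The main one was higher in 3D by 0.22 (limma adjusted p = 0.0870) and 210103_s_at lower by −0.13 (limma adjusted p = 0.606).

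FOXA1, which partners with steroid receptors in breast and prostate and with NKX2-1 in the airway, was lowest in treated spheroids. Its main probe set had 7.04 and 6.92 in 2D control, 6.43 and 6.43 in both 2D treated and 3D control, and 5.87 and 5.33 in 3D treated. The 4 arrays of 2D treated and 3D control hold 1 identical value, so these groups have no spread of their own for FOXA1, and the error comes from the 2D control and 3D treated arrays. The log2 fold-change with treatment was −0.83 ± 0.19 in 3D (SE, limma adjusted p = 0.0750; 95% interval −1.34 to −0.32) and −0.55 ± 0.19 in 2D (SE, limma adjusted p = 0.568), and neither passed. Without 3D treated 1 or 2 the 3D value was −1.10 or −0.55 and did pass. In those fits the residual spread of FOXA1 comes from the 2D control arrays alone, so these passes are not firmer calls. The difference between both responses was −0.27 (limma adjusted p = 0.751; 95% interval −0.997 to 0.45). Without 3D treated 1 this difference was −0.55 and also passed, with the same limit.

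The other FOXA1 probe set, 237086_at, also had its lowest values in 3D treated, but spread more. It had 6.95 and 7.15 in 2D control, 5.03 and 5.88 in 2D treated, 3.33 and 4.73 in 3D control, and 2.83 and 3.54 in 3D treated. Here the untreated spheroids lay well below the untreated monolayers, with a log2 difference of −3.02 ± 0.61 (SE, limma adjusted p = 0.0677), beside −0.55 for the main probe set (limma adjusted p = 0.216). In 3D treated cultures it was −2.27 below 2D treated on the log2 scale (limma adjusted p = 0.0883), beside −0.83 for the main probe set (limma adjusted p = 0.0580). In both comparisons the main probe set did pass without 3D treated 1 or without 3D treated 2. Its residual spread in those fits again came from the 2D control arrays alone. None of these FOXA1 differences passed in the fit of all 8 arrays described above.

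**Figure D2:**
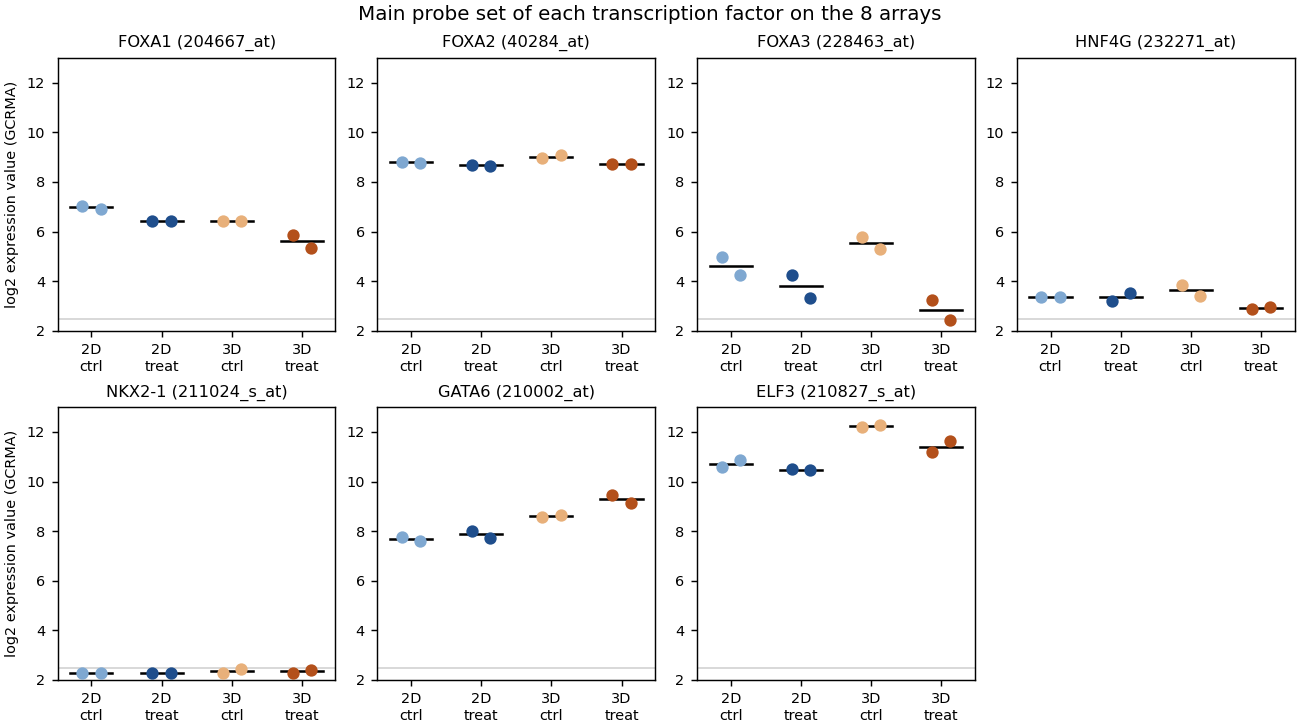
Log2 GCRMA expression value of the main probe set of each factor on each of the 8 A549 arrays (points, 2 per group), with the mean of each group (black line) and the range of the array medians (grey band). FOXA3 falls from 5.77 and 5.30 in 3D control to 3.24 and 2.44 in 3D treated, GATA6 is highest in 3D treated at 9.48 and 9.14, and NKX2-1 stays at 2.26 to 2.43.

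HNF4G, the HNF4 paralog found in gut, kidney and pancreas, was dim but above the array medians. Its main probe set had 3.37 and 3.36 in 2D control, 3.21 and 3.50 in 2D treated, 3.84 and 3.41 in 3D control, and 2.87 and 2.97 in 3D treated. The 3D treated arrays were the lowest, and the other 3 groups lay between 3.21 and 3.84. The log2 fold-change was −0.71 ± 0.18 in 3D (SE, limma adjusted p = 0.0979) and −0.01 in 2D (limma adjusted p = 1). The difference between both responses was −0.69 ± 0.26 (SE), which had an unadjusted limma p of 0.0497 and did not pass (limma adjusted p = 0.318). Its other probe set, 207456_at, was at 2.24 on every array.

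NKX2-1 was not well above background on any array. Its main probe set lay between 2.26 and 2.43, below the array median on all 8 arrays, and its other probe set, 210673_x_at, lay between 2.26 and 2.31. With both so near the lowest value of the table, 2.23, no fold can be given for this factor, and the measured log2 difference in 3D was −0.01 (limma adjusted p = 1). Of its targets, ABCA3, the lipid transporter of lamellar bodies, was at 7.24 to 7.49 and SFTPB, a surfactant protein, at 4.12 to 4.21, whereas SCGB1A1, SCGB3A1, SCGB3A2 and SLC34A2 were at 2.23 on all arrays. The probe sets of SFTPC and NAPSA stayed within 2.47 to 2.72 and at 2.53, close to the array medians of 2.43 to 2.50.

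GATA6 had higher values in spheroids by its main probe set, the only 1 of its probe sets with usable signal on differences. Its main probe set had 7.77 and 7.60 in 2D control, 8.02 and 7.71 in 2D treated, 8.57 and 8.65 in 3D control, and 9.48 and 9.14 in 3D treated. Every 3D array lay above every 2D array, and the 3D treated arrays above the 3D control ones. GATA6 was higher in 3D treated than in 2D treated by 1.44 ± 0.17 on the log2 scale (SE, 2.72-fold, limma adjusted p = 0.0108). That call remained without any 1 array (limma adjusted p up to 0.0449, 2.42-fold to 3.05-fold) and was lost with only the 4 arrays of the comparison (limma adjusted p = 0.124).

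Between the untreated cultures GATA6 was 0.93 ± 0.17 higher in 3D on the log2 scale (SE, limma adjusted p = 0.0533; 95% interval 0.48 to 1.38), just short of the threshold. With treatment its log2 fold-change was 0.70 ± 0.17 in 3D (SE, limma adjusted p = 0.0845; 95% interval 0.24 to 1.15) and 0.18 in 2D (limma adjusted p = 1), and the difference between both responses was 0.51 (limma adjusted p = 0.461). The 2D control and 2D treated values overlapped. Its other probe set, 229282_at, was at 3.42 on 7 arrays and at 3.59 on 3D treated 1, and so carried no usable signal on its differences.

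The ELF3 probe sets were called in opposite directions between the treated cultures. The main one, 210827_s_at, had 10.59 and 10.86 in 2D control, 10.49 and 10.47 in 2D treated, 12.22 and 12.28 in 3D control, and 11.20 and 11.62 in 3D treated. All 3D arrays lay above all 2D arrays, and treated lay below control within 3D. By this probe set ELF3 was 2.88-fold higher in untreated spheroids than in untreated monolayers, a log2 difference of 1.52 ± 0.17 (SE, limma adjusted p = 0.0227), and 1.90-fold higher in 3D treated than in 2D treated, a log2 difference of 0.93 ± 0.17 (SE, limma adjusted p = 0.0342). The first of these ended without any 1 array other than 3D treated 1 or 2 (limma adjusted p up to 0.0902), and the other without any 1 array but 3D treated 1 (limma adjusted p up to 0.143).

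Probe set 229842_at had 9.04 and 8.72 in 2D control, 8.43 and 8.69 in 2D treated, 9.20 and 8.97 in 3D control, and 6.77 and 6.84 in 3D treated. Probe set 201510_at had 8.21 and 8.70 in 2D control, 8.37 and 8.28 in 2D treated, 8.79 and 8.87 in 3D control, and 6.11 and 6.66 in 3D treated. On both, the 3D treated arrays stood apart as the lowest, and the remaining 6 arrays lay close together. Between untreated cultures these probe sets differed by 0.20 (limma adjusted p = 0.671) and 0.37 (limma adjusted p = 0.591) on the log2 scale, against 1.52 for the main one.

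In 3D treated cultures 229842_at fell 4.86-fold, a log2 fold-change of −2.28 ± 0.16 (SE, limma adjusted p = 0.00600), and 201510_at 5.45-fold, a log2 fold-change of −2.45 ± 0.25 (SE, limma adjusted p = 0.0118). The main probe set moved the same way by −0.84 ± 0.17 (SE, limma adjusted p = 0.0583). In 2D the log2 fold-changes of the 3 were −0.32, −0.13 and −0.24 (limma adjusted p of 0.887, 1 and 0.920). The difference between both responses was called for 229842_at, at −1.96 ± 0.23 (SE, limma adjusted p = 0.0408), and was −2.31 ± 0.35 for 201510_at (SE, limma adjusted p = 0.0647) and −0.60 for the main probe set (limma adjusted p = 0.381). The 3D fall of 229842_at remained without any 1 array (limma adjusted p up to 0.0242, 4.49-fold to 5.26-fold), and that of 201510_at ended without either 3D control array (limma adjusted p up to 0.0584). The call on the difference ended without any 1 array but 2D control 1 (limma adjusted p up to 0.0821) and with the replicate number as a block (limma adjusted p = 0.102).

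Between the treated cultures the direction itself depended on the probe set. The main probe set was higher in 3D, whereas 229842_at was 3.38-fold lower, a log2 difference of −1.76 ± 0.16 (SE, limma adjusted p = 0.00683), and 201510_at 3.84-fold lower, a log2 difference of −1.94 ± 0.25 (SE, limma adjusted p = 0.0135). The call on 201510_at ended without either 2D treated array (limma adjusted p up to 0.0658). No direction for ELF3 can therefore be given for this comparison, and which transcript parts the probe sets read was not analysed here.

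**Figure D3:**
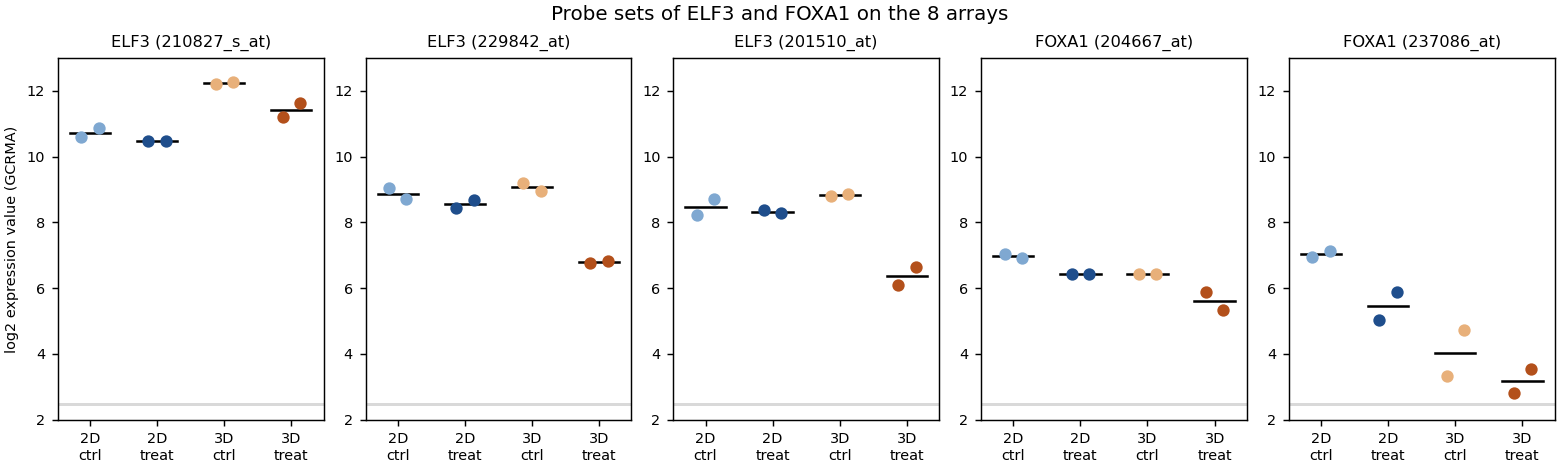
Log2 GCRMA expression value of the 3 ELF3 probe sets and the 2 FOXA1 probe sets on each of the 8 A549 arrays (points), with the mean of each group (black line) and the range of the array medians (grey band). ELF3 229842_at and 201510_at drop to 6.11 to 6.84 in 3D treated, while 210827_s_at stays at 11.20 and 11.62 there, above its 2D values of 10.47 to 10.86.

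Other factors of the same tissues were read from lists of named genes, again by main probe set. Of 12 measured hepatic and gut endoderm factors, 1 was higher and 1 lower in 3D treated than in 3D control, with a median log2 fold-change of 0 (5.53% of all genes called higher and 10.8% lower), and 7 were below the array median on all arrays. SOX17, a definitive endoderm factor, had 5.43 and 5.44 in 3D control and 6.44 and 6.26 in 3D treated, a rise of 0.91 ± 0.07 on the log2 scale (SE, limma adjusted p = 0.00723). HHEX, a homeobox factor of liver and thyroid primordia, had 8.58 and 8.54 in 3D control and 7.44 and 7.23 in 3D treated, a log2 fold-change of −1.22 ± 0.17 (SE, limma adjusted p = 0.0222). NR5A2, a nuclear receptor of liver and gut, was higher in untreated spheroids than in untreated monolayers by 1.22 (limma adjusted p = 0.0360).

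Of 15 measured lung epithelial factors, 4 were higher and 1 lower in treated spheroids, with a median of 0.05, beside 5.53% of all genes called higher and 10.8% lower. FOXP1, a forkhead repressor of the developing airway, had 9.73 and 9.50 in 3D control and 10.91 and 10.77 in 3D treated, a rise of 1.23 ± 0.11 (SE, limma adjusted p = 0.00835). SOX9, a factor of the distal lung tip, rose by 1.08 (limma adjusted p = 0.0352), ID2, an inhibitor of basic helix-loop-helix factors in the same tip cells, by 0.96 (limma adjusted p = 0.0157) and FOXP4 by 0.49 (limma adjusted p = 0.0447). CEBPA, which promotes differentiation of alveolar and liver cells, had 7.73 and 7.92 in 3D control and 6.16 and 5.43 in 3D treated, a log2 fold-change of −2.03 ± 0.28 (SE, limma adjusted p = 0.0230).

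In the untreated cultures SOX9 and FOXP4 stood on opposite sides. SOX9 was lower in 3D than in 2D control by −1.10 (limma adjusted p = 0.0442), while FOXP4 was higher by 0.86 (limma adjusted p = 0.0205) and ID2 by 0.66 (limma adjusted p = 0.0476) on the log2 scale. Between the treated cultures FOXP4 (1.38), FOXP1 (0.84) and ID2 (0.54) were higher and CEBPA (−1.84) lower in 3D, with limma adjusted p of 0.00379, 0.0128, 0.0458 and 0.0206.

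ETS, grainyhead and related epithelial factors were the list nearest to ELF3. Of 12 measured, 0 were higher and 4 lower in treated spheroids, with a median of −0.06 (5.53% of all genes called higher and 10.8% lower). The log2 fold-changes were −1.87 for SPDEF, a factor of mucous cells (limma adjusted p = 0.00643), −1.82 for EHF, a close relative of ELF3 (limma adjusted p = 0.0154), −1.16 for KLF5, a zinc finger factor of proliferating epithelium (limma adjusted p = 0.00215), and −0.36 for ELF1 (limma adjusted p = 0.0322). EHF had 12.61 and 12.34 in 2D control, 12.10 and 11.96 in 2D treated, 11.17 and 10.93 in 3D control, and 9.47 and 8.98 in 3D treated. Unlike the ELF3 main probe set, EHF was lower in untreated spheroids than in untreated monolayers, by −1.42 on the log2 scale (limma adjusted p = 0.0366), while ELF1 (0.35, limma adjusted p = 0.0439) and KLF5 (0.28, limma adjusted p = 0.0463) were higher. KLF5 had 10.81 and 10.92, 10.74 and 10.72, 11.11 and 11.19, and 9.99 and 10.00 in the same order of groups, and its 3D and 2D responses differed by −1.02 (limma adjusted p = 0.0135). Between the treated cultures ELF4 was higher in 3D by 1.37 (limma adjusted p = 0.00676), and EHF (−2.81), KLF5 (−0.74) and SPDEF (−0.66) were lower.

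Of the 8 other GATA factors and their cofactors, GATA2, a factor of blood and endothelial lineages, was called in 3D. It had 8.28 and 8.33 in 3D control and 6.20 and 6.63 in 3D treated, a log2 fold-change of −1.89 ± 0.19 (SE, limma adjusted p = 0.0110). GATA6 itself had the opposite sign there, without passing the test. The median of the list was −0.14, with 0 higher and 1 lower of the 8 (5.53% of all genes called higher and 10.8% lower).

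Target genes of these factors were read in 3 lists. Of 26 measured liver-type target genes, 0 were higher and 6 lower in treated spheroids, with a median of −0.17, beside 5.53% of all genes called higher and 10.8% lower. FGA, the fibrinogen alpha chain, had 6.78 and 6.49 in 2D control, 6.41 and 6.27 in 2D treated, 8.40 and 8.70 in 3D control, and 4.58 and 4.47 in 3D treated. It was 3.77-fold higher in untreated spheroids than monolayers (limma adjusted p = 0.0127) and fell 16.3-fold with treatment in 3D, a log2 fold-change of −4.02 ± 0.15 (SE, limma adjusted p = 0.00187). FGG, the gamma chain, changed by −3.59 ± 0.60 (SE, limma adjusted p = 0.0354), AGT, angiotensinogen, by −2.88 ± 0.36 (SE, limma adjusted p = 0.0178) and TM4SF4, a tetraspanin-like membrane protein of liver and gut, by −2.81 ± 0.14 (SE, limma adjusted p = 0.00296) on the log2 scale. The remaining calls, APOH (−2.40) and CYP3A4 (−0.70), fell outside the naming rule by size and are named after their values were seen. AHSG, a liver plasma glycoprotein, was higher in untreated spheroids than monolayers by 3.03 (limma adjusted p = 0.0379), and SERPINA1, the elastase inhibitor alpha-1-antitrypsin, was higher in treated spheroids than treated monolayers by 2.65 (limma adjusted p = 0.0197). In that comparison 1 of the 26 was higher and 4 were lower, beside 9.06% of all genes called higher and 14.5% lower. Those lower were TM4SF4 (−2.31), FGA (−1.82), AMBP (−1.17) and APOH (−0.99), with limma adjusted p of 0.00313, 0.00568, 0.0184 and 0.0320.

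Of 20 measured gastric and intestinal genes, 0 were higher and 6 lower in treated spheroids, with a median of 0, beside 5.53% of all genes called higher and 10.8% lower. VIL1, the brush border protein villin, had 9.28 and 8.65 in 2D control, 6.76 and 5.63 in 2D treated, 8.92 and 8.65 in 3D control, and 4.13 and 5.13 in 3D treated, and fell 17.8-fold in 3D (log2 fold-change −4.15 ± 0.56, SE, limma adjusted p = 0.0216). ANXA13, an intestinal annexin, changed by −2.89 (limma adjusted p = 0.00776), CDH17, the liver-intestine cadherin, by −2.12 (limma adjusted p = 0.00573) and MUC5AC, the gel-forming mucin of stomach and airway, by −1.54 (limma adjusted p = 0.0234) on the log2 scale. The remaining calls, LGALS4 (−1.46) and AGR2 (−1.27), were likewise named after their values were seen. So was TFF1, a trefoil peptide of gastric mucus, whose log2 difference had the opposite sign at 2.79 and did not pass (limma adjusted p = 0.0688). MUC5AC was also lower in untreated spheroids than in untreated monolayers, 8.01-fold (limma adjusted p = 0.0105). Of 11 measured lung target genes, 1 was called in 3D, LPCAT1, an enzyme of surfactant lipid synthesis, at −0.59 (limma adjusted p = 0.0226), beside 10.8% of all genes called lower, and the median was 0.

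In 2D, 0 of the 104 genes of these 7 lists were called by limma in either direction, beside 0.121% of all genes called higher and 0.0759% lower. Ordinary t statistics also called 0, and 17 had an unadjusted limma p under 0.05, a threshold for which no share of all genes is given here. Of the 21 calls named for the 3D comparison across the lists, 8 remained without any 1 array, those of ANXA13, CDH17, FGA, FOXP1, KLF5, SOX17, SPDEF and TM4SF4, and 13 ended without some array (limma adjusted p up to 0.175). In the untreated comparison 9 of 12 such calls ended without some array (limma adjusted p up to 0.157), and between the treated cultures 10 of 20 did (limma adjusted p up to 0.176). With only the 4 arrays of a comparison, 18 of the 21, 12 of the 12 and 19 of the 20 calls ended, and with the replicate number as a block 8, 8 and 4 did.

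**Figure D4:**
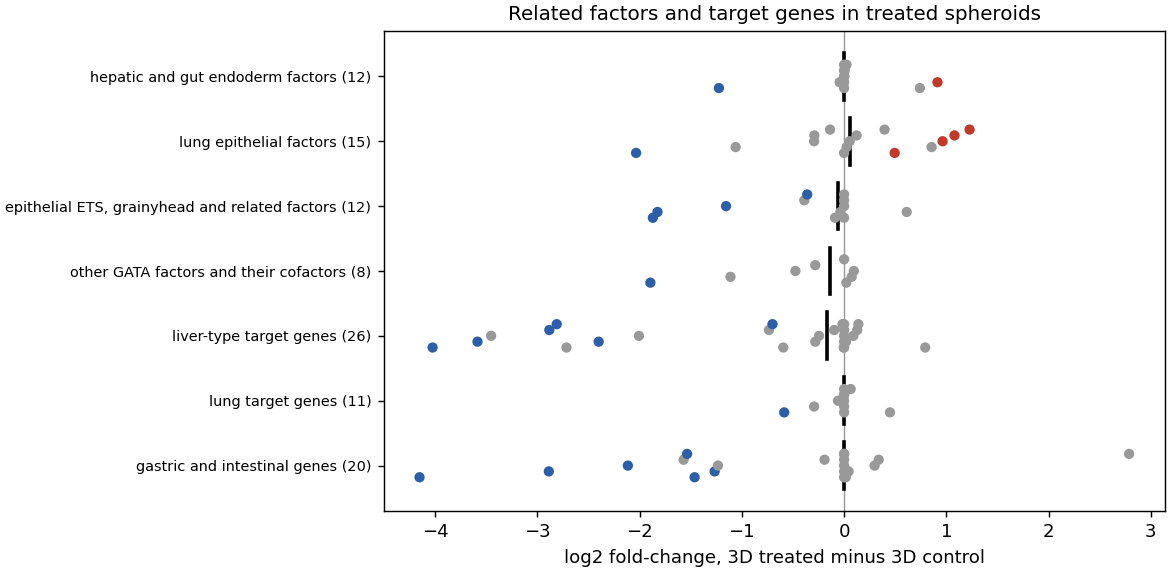
Log2 fold-change between 3D treated and 3D control A549 cultures for the main probe set of each gene (points) of 7 lists of related factors and target genes, with the number measured in brackets; blue marks a fall and red a rise at a limma adjusted p under 0.05, grey did not pass, and black bars are list medians. The largest falls are those of VIL1 (−4.15) and FGA (−4.02), and the rises are SOX17 and 4 lung epithelial factors.

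The epithelial markers of the cultures were lowest in treated spheroids, as were FOXA1, FOXA3 and HNF4G. All 7 measured epithelial and A549 markers (KRT8, KRT18, EPCAM, CDH1, ALDH1A1, AKR1B10 and AKR1C1) were above the array median on every array. By limma all 7 were called lower in 3D treated than in 3D control, where 10.8% of all genes were called lower. The log2 of their summed level was 17.57 to 17.58 in 2D control, 17.31 to 17.32 in 2D treated, 17.07 in 3D control and 16.32 to 16.34 in 3D treated. Between untreated cultures 3 of the 7 were lower and 0 higher in 3D by limma, beside 4.9% of all genes called lower and 5.77% higher. The ELF3 main probe set was higher there. Their part in the falls of FOXA2, FOXA3 and ELF3 was not tested. Markers of other cells were mostly at background: PTPRC and CD3E of leukocytes, CDH5, KDR, VWF and TEK of endothelium, and PDGFRB, DCN and MYH11 of fibroblasts and smooth muscle were below the array median on all arrays. Not so were CD14, at 5.28 to 9.69, and CD79A, at 2.28 to 3.59, of 4 measured leukocyte markers, PECAM1, at 4.24 to 4.61, of 5 endothelial markers, and LUM, PDGFRA and DES, which reached 4.52, 3.58 and 3.02, of 6 fibroblast and smooth muscle markers. The log2 summed level of the leukocyte markers went from 8.43 to 8.73 in 3D control to 5.79 to 6.45 in 3D treated. CD14 alone made up most of it, with a highest value of 8.68 in 3D control and 6.05 in 3D treated. The summed level of the fibroblast and smooth muscle markers went from 5.02 to 5.04 to 5.04 to 5.82, and that of the endothelial markers from 5.27 to 5.33 to 5.34 to 5.35.

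The genes with the most similar pattern over the 8 arrays were sought among 12655 genes for the 4 factors whose group means spanned at least 1, by the root-mean-square difference of values centred on each gene's mean. For FOXA1 they were EVPL (0.09), CHST15 (0.10) and CYP20A1 (0.11), beside a median of 0.53 over all genes compared. For FOXA3 they were CTTNBP2 (0.26), FMO5 (0.31) and LRG1 (0.31), beside a median of 1.06. For GATA6 they were STARD10 (0.13), CLK3 (0.14) and CD99 (0.14), beside 0.74, and for ELF3 DUSP9 (0.16), LINC02749 (0.16) and FAM98C (0.17), beside 0.76. DUSP9 and LINC02749 were dim, with group means of 2.32 to 4.05. Among the factors themselves FOXA1 and HNF4G differed by 0.42, FOXA1 and FOXA2 by 0.50, and the ELF3 main probe set and FOXA2 by 0.60. GATA6 differed from the ELF3 main probe set by 0.61 and from NKX2-1, which was near background, by 0.63. FOXA1 and FOXA3 differed by 0.81 and FOXA3 and GATA6 by 1.42. A small distance here therefore need not mean a shared pattern. These distances describe 8 arrays from 4 groups and carry no test.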

How the data were processed

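RNA of A549 cultures was hybridized to 8 Affymetrix U133 plus 2.0 arrays (2 per group), and the groups were read from the deposited sample titles. The deposited values are log2 expression values that the authors computed by GCRMA, which corrects background from probe sequence and summarizes each probe set. The sample records name limma 3.6.9. Array medians were 2.43 to 2.50 and the lowest value 2.23, so dim probe sets carry little signal, and the number of arrays limits the precision. The value table held 54675 probe sets, of which 62 controls were removed.

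Differences were tested here with limma 3.58.1 in R 4.3.3 (lmFit on 4 group means over all 8 arrays, eBayes, 4 residual degrees of freedom, prior 0.347), with Benjamini-Hochberg adjustment across 54613 probe sets per comparison at 0.05. Probe sets naming several genes (1801) or unnamed in the platform table (11721) were tested and not counted as genes. A group was near background when below the array median on both arrays. The fit was tested on simulated data. Tables and plots were made with pandas 2.3.3 and matplotlib 3.10.9 in Python 3.11.15, and promoters were taken from RefSeq on GRCh38.p14, with an entry for 6 of the 8 genes.

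The factors and lists were chosen with earlier results of these data known. Named were all factors, up to 4 called members per list and direction, and the 3 nearest patterns of each factor whose group means spanned at least 1. Same-numbered arrays of different groups deviated together with correlations of −0.0148 to 0.283 over 28188 brighter probe sets, and 0.283 was between 2D control and 2D treated, so the number was a block only as an alternative. Other alternatives were an intensity trend, ordinary t statistics, removal of dim probe sets, subtraction of array medians, quantile normalization, the 4 arrays of a comparison alone, the probe set with the largest change, adjustment over 1 probe set per gene, leaving out each array, and a required fold of 2. No scan batch is given in the sources used here. Chromatin data were not analysed here.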

Additional observations from a re-analysis of the deposited data

Results flagged for a closer look

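In 7 probe sets the response of spheroids differed from that of monolayers by the limma test of the difference itself, given here as the log2 fold-change in 3D minus that in 2D with its limma adjusted p. They were 1 of the 15 probe sets of the factors and 6 of the 104 genes of the related lists. Of all genes, 1.32% were called higher and 1.94% lower in this comparison. ELF3 by probe set 229842_at stood at −1.96 (0.0408). Of the related genes, FGA stood at −3.73 (0.00989), TM4SF4 at −2.10 (0.0264), KLF5 at −1.02 (0.0135), CYP3A4 at −0.67 (0.00937), FOXP1 at 1.23 (0.0432) and SOX17 at 0.78 (0.0495). Without some 1 array the calls on ELF3 229842_at (limma adjusted p up to 0.0821), TM4SF4 (up to 0.0699), FOXP1 (up to 0.100) and SOX17 (up to 0.12) ended, while those on CYP3A4, FGA and KLF5 remained without any 1 array (up to 0.0229, 0.0263 and 0.0366). CYP3A4 was dim, at 3.45 on both 2D control arrays and at 3.39 and 3.45 in 2D treated. It had 4.12 and 4.08 in 3D control and 3.39 and 3.41 in 3D treated. Its call therefore rests on low values with little spread. The main probe set of ELF3 gave −0.60 for the difference between responses (limma adjusted p = 0.381).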

How the results depend on the processing

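The number of factors called in 3D, 2 of 7, became 3 with an intensity trend, the probe set of the largest change or adjustment over 1 probe set per gene, 1 with the replicate number as a block, 1 after quantile normalization, 1 at a fold of at least 2, 0 with ordinary t statistics and 0 with only the 4 arrays, but 5 with array medians subtracted and 6 of 6 with dim probe sets left out. It was 0 to 2 without each array in turn. In 2D the count stayed 0 under every alternative run, including the block, and the count for the difference between responses was 0 to 1 without each array and 0 otherwise. Between untreated cultures the count of 1 became 2 with an intensity trend, quantile normalization, array medians subtracted, dim probe sets left out or adjustment over 1 probe set per gene, 0 with the 4 arrays, and 0 to 2 without each array. Between treated cultures the count of 2 became 3 with the block (FOXA3 added), and 3 with an intensity trend, array medians subtracted, dim probe sets left out or adjustment over 1 probe set per gene (FOXA1 added, lower in 3D), 1 with ordinary t statistics or at a fold of at least 2, 0 with the 4 arrays, and 1 to 3 without each array. ELF3 changed sign between treated cultures, to −1.94, with the probe set of the largest change. Subtracting array medians shifts all probe sets by −0.05 in 3D. The cause of these changes was not tested, except that the filter on dim probe sets adjusts over 28188 instead of 54613 tests. The sample titles do not say whether the arrays' replicate numbers pair the samples. With these numbers as a block FOXA2 lost its 3D call (limma adjusted p = 0.0991) and FOXA3 kept it (0.0137). A fit without 1 array of a group leaves a lone array, assumed to vary like the others. Over 1580 single-gene alternatives 1221 stayed on the same side of the threshold, 330 lost the call, 28 gained one and 1 called value reversed. For the factors alone, 516 of 583 stayed, 38 lost the call, 28 gained one and 1 reversed. Most factor results were not called in the main fit, so they had no call to lose. Values that were not called could change sign, as the FOXA1 difference between responses did, from −0.27 to 0.76 with the probe set of the largest change. With 2 arrays per group and GCRMA values near 2.23, changes of dim genes such as NKX2-1 are not detectable.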
